A study of Arabidopsis thaliana with 6 samples.

Results

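The comparison described here sets seedlings of fio1-5, a line of Arabidopsis thaliana with a damaged FIO1 gene, against wild type Col-0 seedlings, gene by gene and isoform by isoform. It uses 1 direct RNA sequencing library of each genotype, and it covers the 16426 of 33314 listed genes that had at least 20 estimated counts summed over the 3 Nanopore libraries of the series. Direct RNA sequencing passes native poly(A) RNA molecules through a pore and reads each of them as a single stretch. fio1-5 is a single CRISPR line in the Col-0 ecotype, in which a deletion close to a splice site removes part of the FIO1 protein and changes the residues around it. Col-0 is the unmodified wild type of the same ecotype, and the third Nanopore library is fio1-1, an older allele that lacks a few residues in the catalytic part of FIO1. All material is labelled as seedlings of 14 days that grew on MS medium in long days, with no organ named. Since each genotype has a single library, no difference below has been checked against replicates and none was tested. Values are given as counts or as log2 ratios of scaled counts, fio1-5 over Col-0, with 0.5 counts added. An interval beside a ratio is the exact 95% interval of the ratio without that addition and covers counting error only, and values given as a fold likewise leave the addition out. Rose, fell, higher and lower are used of genes past 2-fold, the cutoff used throughout.

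FIO1 is the plant homologue of animal METTL16, an enzyme that methylates adenosine at the N6 position (m6A) of selected RNAs. Among the targets known for this enzyme family is the U6 small nuclear RNA, the spliceosomal RNA that pairs with the start of the intron, and the methylated base of U6 lies opposite the position 4 bases into that intron. Loss of FIO1 function is known for early flowering and for a changed period of the circadian clock. The comparison therefore bears on which transcripts differ in abundance when FIO1 is damaged and on which splice forms of a gene are used.

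The gene counts summed to 4602836 in Col-0, 4682799 in fio1-5 and 4351543 in fio1-1, and between 21223 and 21483 genes had a count. CPM denotes scaled counts for every 1000000 of the library. A floor of 3 counts corresponded to 0.637 CPM in Col-0 and 0.648 CPM in fio1-5. The 10 most counted genes took 12% of the counts in both libraries. FIO1 itself had 25 counts in Col-0, 30 in fio1-5 and 17 in fio1-1. Its log2 ratio in fio1-5 was 0.28 (interval -0.53 to 1.11), and since the allele changes the sequence of the transcript this count checks neither label. Genes of both shoot and root were counted: the light-harvesting genes took 90455 CPM in Col-0 and 99093 CPM in fio1-5, and root hair genes were counted in both libraries.

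Of the 16426 genes, 1220 (7.43%) were at least 2-fold higher in fio1-5 and 704 (4.29%) at least 2-fold lower. Both shares are the background for every count of higher or lower genes in a list below. Since the low-count filter sums the 3 libraries, a gene with few counts in Col-0 could pass it through the mutants alone. The log2 ratio was above 0 for 8287 genes and below 0 for 8139, and its median was 0.01. On the deposited TPM values, which are scaled to isoform length, with 0.5 TPM added, this median moved to -0.15, and 636 genes were higher and 598 lower. The addition is larger relative to low values there than 0.5 counts are here, and its part and that of the scale in this change were not separated. In fio1-1, which was set against the same Col-0 library, 1561 genes were higher and 704 lower.

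FLC, the MADS-box repressor of flowering, had 33 counts in Col-0, 4 in fio1-5 and 1 in fio1-1. The counts of fio1-5 and Col-0 lie far apart, and FLC fell 8.11-fold in fio1-5 (log2 ratio -2.87, interval -4.98 to -1.53). Of 19 tested flowering repressors, 2 were lower and 0 higher, with a median log2 ratio of -0.18. The second was TOE3, an AP2-type repressor, with 44 counts in Col-0 and 21 in fio1-5. TEM1, a repressor of FT, had 440 and 295 counts (log2 ratio -0.55) and SVP, a partner of FLC, 203 and 173 (-0.21). CDF3, a repressor of CO, had 97 and 145 counts, a log2 ratio of 0.60. Of 11 tested flowering activators, 2 were higher and 1 lower. AGL20, better known as SOC1, rose from 29 to 63 counts (log2 ratio 1.13). AGL24, another MADS-box activator, had 5 and 14 counts, with an interval of the log2 ratio from -0.04 to 3.34. NF-YB2, a subunit of the nuclear factor Y complex, fell from 879 to 331 counts (log2 ratio -1.38, interval -1.57 to -1.20). The activator COL5 had 813 and 974 counts, and FKF1, the blue light receptor that acts on CO, 204 and 150. In a mixed list of autonomous pathway, vernalization and Polycomb genes, which act on FLC in different ways, 14 of 16 tested genes had a log2 ratio below 0, with a median of -0.34, and 2 of them were lower. These were VRN5 with 20 and 6 counts and CLF with 18 and 6, both of which act in Polycomb silencing. FVE (298 and 277), VRN1 (268 and 249) and FPA (91 and 107) differed by less than 0.3 on the log2 scale.

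The largest falls were in genes of several kinds. Among genes with at least 100 counts over both libraries, AT2G30766 stood first, with 265 counts in Col-0 and 6 in fio1-5, a 43.4-fold fall (interval of the log2 ratio -6.90 to -4.30). AT1G47395, which like AT2G30766 is annotated as an uncharacterized protein, had 131 and 10 counts, a 12.9-fold fall. AT2G14247, annotated to the response to hypoxia, had 152 and 5 counts, and AT4G27657, with the same annotation, had 136 and 28. A gene listed as novel32, which the table gives without a locus name, had 96 and 4. MBP1, a myrosinase-binding protein of the mustard oil defence, had 681 counts in Col-0, 72 in fio1-5 and 41 in fio1-1, a 9.30-fold fall in fio1-5. HIS1-3, a linker histone known to respond to drought, had 884 and 162 counts, a 5.36-fold fall. CAF1a, a deadenylase that shortens poly(A) tails, had 186 and 30 counts, and CPB, a subunit of the actin capping protein, 166 and 28. ASN1, an asparagine synthetase of dark and starved tissue, had 161 and 34 counts, but 162 in fio1-1. AT5G05060, a cystatin-like protein, had 435 and 96 counts and AT1G72910, a TIR domain protein, 93 and 21.

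The largest rises spread over RNA genes, secreted proteins and light signalling. The non-coding RNA AT2G01422 had 3 counts in Col-0, 183 in fio1-5 and 658 in fio1-1, a ratio of 62.1 in fio1-5 whose log2 interval ran from 4.39 to 8.25. LTP4, a lipid transfer protein of the outer cell layers, had 11, 413 and 262 counts in the same order, a 38.2-fold rise in fio1-5. HFR1, a transcription factor that dampens shade responses, had 10 and 90 counts, and STH, a B-box protein of light signalling, 27 and 161. ABCG34, an ABC transporter, had 291 counts in Col-0, 1529 in fio1-5 and 458 in fio1-1 (log2 ratio in fio1-5 2.42, interval 2.24 to 2.60). SESA2, a seed storage albumin, had 91 and 472 counts, and AT2G15010, a thionin, 39 and 203. RAP2.11, a transcription factor of the potassium response, had 19 and 85 counts and AT3G16670, of the Pollen Ole e 1 and extensin family, 25 and 111. The extensin-like gene AT3G54580 had 62 and 309. The spliceosomal RNA genes U6.5 and U2.3 complete the set and are taken up below with their family. The plot of counts shows these 24 genes, which were chosen by their ratios.

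**Figure D1:**
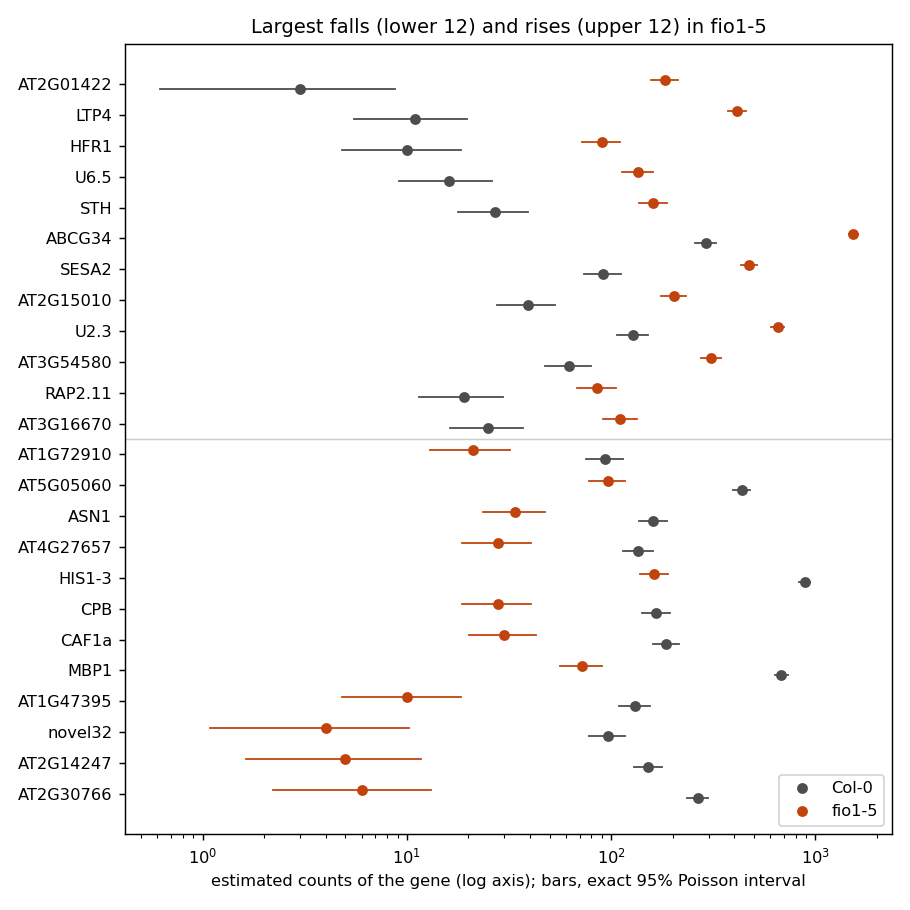
Estimated counts, on a log axis, of the 12 genes with the largest fall and the 12 with the largest rise in fio1-5 among genes with at least 100 counts over fio1-5 and Col-0; points are the single library of each genotype and bars the exact 95% Poisson interval. AT2G30766 falls from 265 to 6 counts and AT2G01422 rises from 3 to 183.

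In absolute terms the largest gains were in photosynthesis. RBCS1A, the main small subunit of Rubisco, had 8841 CPM in Col-0 and 12384 CPM in fio1-5, a 1.40-fold difference. CAB2 had 1235 and 4372 CPM, LHCB2.1 1368 and 3783 CPM and LHCB2.2 1693 and 3308 CPM, all chlorophyll-binding proteins of the photosystem II antenna. LHCA4 (7402 and 10191 CPM), LHCB3 (8026 and 10259 CPM) and LHCB6 (3815 and 5377 CPM) differed by 1.28- to 1.41-fold. The largest loss was in the same family, in CAB1, with 54166 and 47187 CPM. The LHCB1 genes, CAB1 and CAB2 among them, and the LHCB2 genes are near-identical copies, so the split of reads among them is uncertain. Summed over copies, the 5 LHCB1 genes had a log2 ratio of -0.10, the 3 LHCB2 genes 1.21 and the 4 RBCS genes 0.39. The gain of LHCB2 therefore did not rest on how its reads were split, whereas the gain of CAB2 was not seen in the LHCB1 sum. AT1G07590, annotated as a repeat protein, had 5798 and 8064 CPM, but the metallothionein gene MT1A lies within it and was listed at 0 in all libraries, so that the counts of these overlapping genes cannot be told apart. The other large losses were in DRMH1, a dormancy-associated gene (6660 and 2756 CPM, a 2.42-fold fall), MT2A, a metallothionein (4178 and 2361 CPM), CCL (3377 and 1935 CPM), the cold-responsive KIN2 (4179 and 2904 CPM), THI1 of thiamine synthesis (4185 and 3080 CPM), AT1G13930 (3864 and 2864 CPM) and the gibberellin-responsive GASA4 (2893 and 2028 CPM). Of these, only DRMH1 passed 2-fold.

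Across the antenna list, 15 of 20 tested genes had a log2 ratio above 0 and the median was 0.36, with 2 genes higher and 0 lower. The photosystem I subunits had a median of 0.20 over 12 genes and the photosystem II subunits 0.13 over 10 (-0.04 on TPM), and none of these passed 2-fold. PSAN and PSAK of photosystem I had log2 ratios of 0.49 and 0.36, and PSBY and PSBR of photosystem II 0.52 and -0.12. For Rubisco and the Calvin cycle the median was -0.01 over 17 genes, with FBA1, a plastid aldolase, higher (13 and 39 counts) and RBCS2B at 6972 and 5371 counts. Among 21 genes of chlorophyll synthesis the median was 0.14 (-0.03 on TPM) and 1 was higher, PORA, the light-labile protochlorophyllide reductase, with 4 and 17 counts.

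Lists of genes that mark root cells were written after the largest rises had been seen to hold root genes, so their values are a description and no support for a direction. Of 34 listed root hair genes, 29 passed the low-count filter, which sums the 3 libraries, so that a member such as MRH6, with 0 counts in Col-0 and 11 in fio1-5, passed through the mutants alone. The log2 ratios of these 29 ran from 0.50 to 4.50 with a median of 1.37, and 20 were past 2-fold, beside 7.43% of the tested genes of the whole table. Summed over the 29, root hair genes took 276 CPM in Col-0 and 753 CPM in fio1-5. AGP3, an arabinogalactan protein, had 169 and 588 counts (log2 ratio 1.82, interval 1.57 to 2.08). PRP3, a proline-rich protein of the root hair wall, had 159 and 513 counts. XTH14, a wall-loosening enzyme, had 180 and 447. EXPA7, an expansin found in root hairs, had 40 and 133 counts, and its relative EXPA18 55 and 151. RSL4, the transcription factor that sets root hair length, had 5 and 18 counts, RHD2, the NADPH oxidase of the growing hair, 15 and 43, and CSLD3, a cellulose synthase-like enzyme of the hair tip, 99 and 138. EXPA7, RSL4 and RHD2, which were named after their values were seen, were among the 20.

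Markers of the endodermis, the inner root layer with the Casparian strip and suberin, were chosen in the same way: 8 of 15 tested genes were higher, 0 lower, and the median log2 ratio was 1.02. CASP1 and CASP2, membrane proteins that lay down the Casparian strip, had 380 and 775, and 127 and 254 counts in Col-0 and fio1-5. The suberin enzymes CYP86A1 (100 and 240 counts) and FACT (75 and 171) rose alike, whereas SHR (63 and 60) and SCR (111 and 110), which specify the layer, did not differ beyond their intervals. On the TPM scale the medians of the root hair and endodermis lists were 1.04 and 0.76. In fio1-1 their medians were 1.48 and 0.86. For comparison, 16 genes of stomata and their precursors, a shoot cell type, had a median of 0.10 (-0.05 on TPM), with 1 gene higher and 2 lower. STOMAGEN, the mesophyll signal that promotes stomata, fell from 422 to 194 counts and ERL2, a receptor kinase of the lineage, from 15 to 1, whereas TMM had 153 and 136 counts and KAT1 61 and 64. In whole seedlings, more cells of a type and more RNA per cell cannot be told apart. The proportion of root in the 2 extracts is not recorded. Several of the gene groups described next are known from roots, and the part of root content in those results was not tested.

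**Figure D2:**
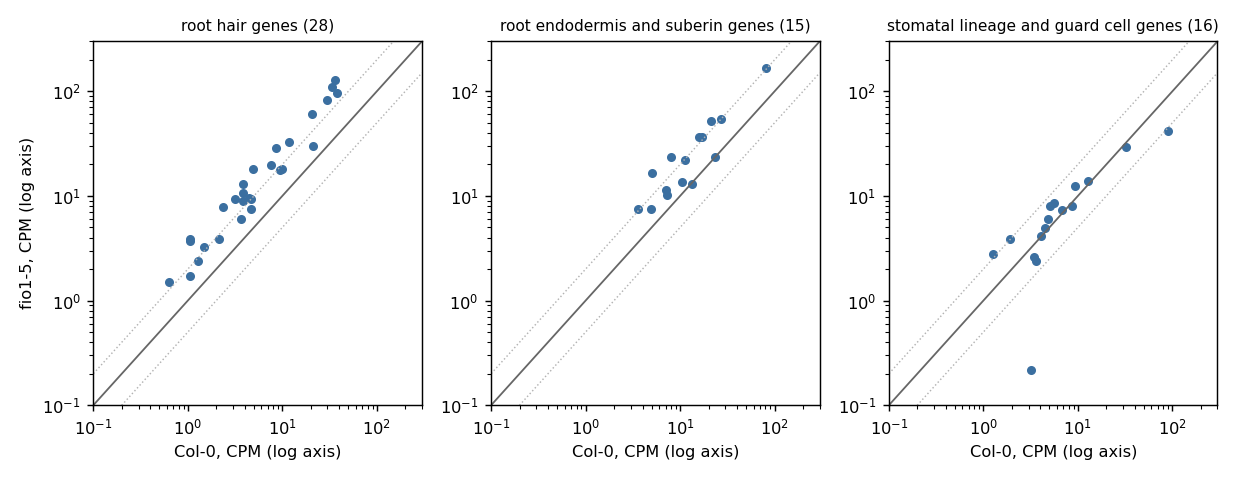
CPM in Col-0 (x axis) and fio1-5 (y axis), both on log axes, for tested members of 3 marker lists; points are genes, the solid line is equality and the dotted lines are 2-fold. The 28 root hair genes drawn lie above equality (MRH6, with 0 counts in Col-0, is left out), the endodermis genes lie above it except SHR and SCR, which sit on it, and the stomatal genes lie on both sides.

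Several families of cell wall proteins held many higher genes. Extensins, the hydroxyproline-rich rods of the wall, had the highest median of all 1977 annotation terms carried by the table with 10 to 200 tested genes: 13 of 17 were higher and 0 lower, with a median log2 ratio of 1.47. AT2G43150 had 961 counts in Col-0 and 1723 in fio1-5, EXT3, which is needed for the cell plate, 539 and 1189. EXT4 had 572 and 399 counts, and 5879 in fio1-1. Next stood the term for structural constituents of the wall, with 14 of 23 genes higher and 2 lower (median 1.37), among them GRP5 with 407 and 748 counts and LRX5 with 211 and 183. The CAP family of secreted cysteine-rich proteins had 6 of 12 genes higher and 3 lower (median 1.05), led by AT5G57625 with 122 and 331 counts. Genes of suberin synthesis had 8 of 13 higher (median 1.04), although the most counted of them, ABCG11 and CER9, had log2 ratios of 0.01 and -0.35. The Pollen Ole e 1 family had 11 of 24 higher (median 0.93), with PRP4 at 7337 and 9318 counts. Among 52 genes of cellulose synthesis and arabinogalactan proteins, 12 were higher and 0 lower (median 0.33), including AGP24 (906 and 1923 counts), FLA2 (518 and 1033) and AGP2 (363 and 735). Of 49 expansins and related wall-loosening enzymes, 9 were higher and 4 lower (median 0.15, and -0.00 on TPM), beside 7.43% and 4.29% of all tested genes. XTH31 rose from 249 to 641 counts and XTH15 from 147 to 299, while TCH4, the touch-induced member of the same enzyme family, fell from 702 to 166.

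Class III peroxidases, secreted enzymes that crosslink the wall, had 17 of 52 tested genes higher and 2 lower, with a median of 0.61. Of all tested genes, 7.43% were higher and 4.29% lower. PER32 rose from 2070 to 4295 counts (log2 ratio 1.08, interval 1.00 to 1.15), PER22 from 346 to 764 and PER64, an endodermal peroxidase, from 175 to 403. Of 29 aquaporins, the water channels of plasma membrane and vacuole, 6 were higher and 0 lower (median 0.38). TIP2;3 had 205 and 508 counts, PIP2;4 128 and 257, and RD28 97 and 231. TIP3;1, the aquaporin of seed vacuoles, had 263 and 639. Among phosphate starvation genes, 13 of 14 had a log2 ratio above 0 and 4 were higher. The phosphate importers PHT1;1 (115 and 374 counts) and PHT1;4 (40 and 95) and the non-coding RNA IPS1 (64 and 146) were the most counted of these. For nitrate, the median was -0.01 over 15 genes. NRT1.5, which loads nitrate into the xylem of the root, rose from 574 to 1288 counts and CGA1, a GATA factor of greening tissue, fell from 47 to 15, while NIA2, the main nitrate reductase, had 3332 and 3616.

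Of 124 glutathione transferases, glycosyltransferases and efflux carriers, 29 were higher (23.4%, beside 7.43% of all tested genes) and 1 lower, with a median of 0.48. Members with few counts in Col-0 could pass the low-count filter through the mutants, as UGT76D1 did with 0 counts in Col-0 and 23 in fio1-5. The list shares members with those of glucosinolate synthesis and salicylic acid, and not all of them serve detoxification. GSTU8 had 169 and 422 counts, GSTU25 99 and 215, and UGT76B1, which glucosylates immune signals, 60 and 130. Of 29 genes of glucosinolate synthesis, which make the precursors of mustard oils, 27 had a log2 ratio above 0 and 5 were higher (median 0.65). CYP79F1, which starts the path from methionine, had 259 and 548 counts, IPMI2 of chain elongation 283 and 576, and IMD1 59 and 138. Among myrosinases and their partners, 2 of 24 were higher (8.33%, near the share of all tested genes) and 1 lower, with a median of 0.50. PYK10, the beta-glucosidase of root ER bodies, had 7287 counts in Col-0, 12700 in fio1-5 and 18449 in fio1-1, and its binding partner PBP1 3263, 5022 and 8762, both under 2-fold in fio1-5, in contrast to the fall of MBP1. In the flavonoid list, which also took in the chitinase gene AT2G43570 by its symbol CHI, 11 of 13 genes had a log2 ratio above 0 (median 0.62). Chalcone synthase TT4 rose from 49 to 139 counts and flavonol synthase FLS1 from 21 to 63, and neither did so in fio1-1, which had 44 and 22. Of 17 phenylpropanoid genes 1 was higher and 2 lower (median 0.47): PAL1, the entry enzyme, rose from 208 to 430, whereas SNG1, which makes sinapoylmalate, fell from 453 to 207 and the peroxidase PRX52 from 43 to 16. Of 9 lipid transfer proteins 2 were higher, LTP4 and LTP3 (107 and 369 counts). Of 9 germin-like proteins, GLP4 had 0 counts in Col-0 and 24 in fio1-5, at least 8.14-fold higher when Col-0 is set to 3 counts, while GER3 had 8526 and 5325. GLP4 passed the low-count filter through the mutants alone.

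Seed storage genes were counted in both seedling libraries, and 3 of 12 were higher and 2 lower. Beside SESA2 these were SESA1 (278 and 548 counts) and OLEO1, an oil body protein (276 and 634), against SESA3 (88 and 37) and SESA4 (10 and 1). This list was written after values had been seen, and it also took in the RNA-binding protein gene CRB (AT1G09340) by its symbol. The construct used to make fio1-5 carries an OLEO1 (OLE1) reporter, and whether it is still present in the line is not given in the sources used here. In fio1-1 OLEO1 had 859 counts.

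Iron deficiency genes moved in the opposite direction to the root markers. Of 13 tested genes, 5 were lower and 1 higher, 38.5% lower against 4.29% of all genes, with a median log2 ratio of -0.59 (-0.61 in fio1-1). IRT1, the iron importer of the root epidermis, had 45 counts in Col-0, 5 in fio1-5 and 21 in fio1-1, an 8.85-fold fall in fio1-5. The transcription factors that drive its expression fell in part: BHLH101 from 50 to 2 counts (log2 ratio -4.31, interval -7.70 to -2.69) and bHLH39 from 22 to 6, while FRU, better known as FIT, had 29 in both. PYE, a regulator in the stele, fell from 70 to 25 counts and MYB10 from 19 to 6. OPT3, the phloem transporter of the shoot-to-root iron signal, had 394 and 232 counts and the iron sensor BTS 192 and 135, both under 2-fold. The 1 higher gene was NAS3, a nicotianamine synthase of iron-replete tissue, with 3 and 32 counts. All 4 ferritins, the iron stores of the plastid, had a ratio above 0 (median 0.41). FER1 had 901 counts in Col-0, 1406 in fio1-5 and 1347 in fio1-1, and FER3 had 417, 418 and 310. Among 16 copper and superoxide dismutase genes 1 was higher and 0 lower (median 0.16, and -0.01 on TPM), and FSD1, the iron superoxide dismutase, had 4342 and 7942 counts (log2 ratio 0.90).

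**Figure D3:**
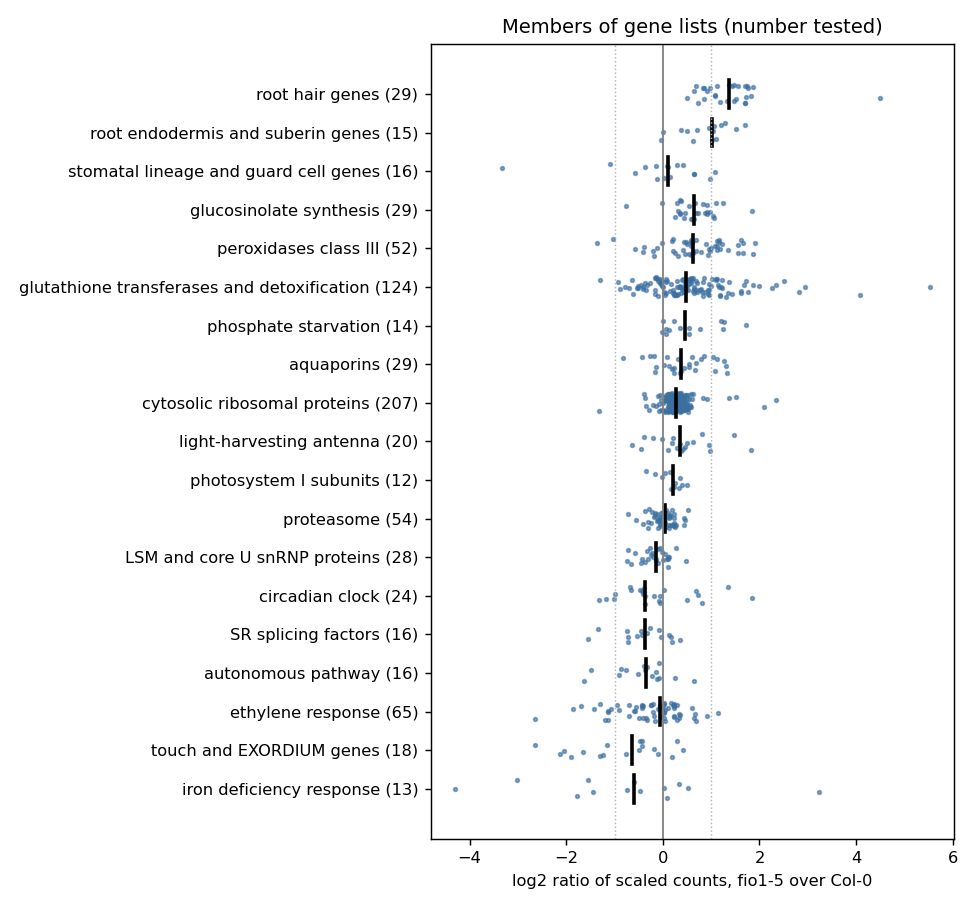
Log2 ratio of scaled counts, fio1-5 over Col-0 (x axis), for the tested members of 19 gene lists (y axis, number of tested members in parentheses); points are genes, thick bars the median of a list, the grey line the median of all tested genes and the dotted lines 2-fold. Root hair genes reach a median of 1.37 and the lowest medians are those of the touch list at -0.63 and the iron deficiency list at -0.59.

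Proteins of the ribosome differed little but evenly. The list was drawn up for the cytosolic ribosome by the product descriptions in the table, but it also took in genes of organelle ribosomes, such as AT2G28815, annotated as a 50S protein, and RPS10 and RPS19, described as mitochondrial. Of 207 tested genes, 194 had a log2 ratio above 0, the median was 0.28, and together they took 59990 CPM in Col-0, 73311 CPM in fio1-5 and 72079 CPM in fio1-1. On the TPM scale the median was 0.12. In all, 4 were higher, AT2G28815 among them, and 1 lower, and RPS5B, with 27 and 115 counts, was the most counted of them. Subunits of the proteasome, which degrades proteins, had a median of 0.03 over 54 genes (-0.12 on TPM), with 0 higher and 0 lower. PBF1 had 928 and 859 counts and PAC1 837 and 899.

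Touch-responsive and growth-related EXORDIUM genes formed the clearest group of falls beside the iron genes. Of 18 tested, 8 were lower and 0 higher (median -0.63), beside 4.29% and 7.43% of all tested genes. In fio1-1 none was lower or higher and the median was -0.06. The 8 were TCH4, TCH3, EXO and the transcription factors ERF6, ERF5, STZ, WRKY33 and WRKY40. No EXORDIUM gene other than EXO passed 2-fold, with EXL5 at a log2 ratio of -0.76 and EXL2 at -0.50. The list also took in the lipase gene EXL1 (AT1G75880) by its symbol. TCH4 had 702 counts in Col-0, 166 in fio1-5 and 587 in fio1-1, a log2 ratio of -2.05 in fio1-5 (interval -2.31 to -1.81). STZ, a zinc finger repressor of stress, had 203, 53 and 191 counts in the same order. WRKY33 had 234, 97 and 216, WRKY40 75, 23 and 58, and EXO, which promotes growth under brassinosteroids, 340, 150 and 238. On the scaled values fio1-1 was closer to Col-0 than fio1-5 was in each of these genes, with log2 ratios to Col-0 of -0.13 for TCH4, 0.04 for STZ, 0.02 for WRKY33, -0.24 for WRKY40 and -0.38 for EXO.

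In the ethylene list 10 of 65 genes were lower and 1 higher (median -0.07), beside 4.29% and 7.43% of all tested genes. Among the lower were ERF104 (201 and 73 counts), DREB26 (125 and 56), ERF2 (73 and 31), ERF5 (61 and 24) and ACS6, an enzyme that makes the ethylene precursor (148 and 69). Of 84 calcium and WRKY defence regulators, 10 were lower (11.9%, beside 4.29% of all tested genes) and 7 higher (8.33%, beside 7.43%). Of 16 salicylic acid genes, 6 were lower and 0 higher, although the median was 0.03 (-0.11 on TPM): WRKY70 had 161 and 57 counts, SAG101 84 and 36, SARD1, which switches on salicylic acid synthesis, 30 and 6, PR1, the marker of systemic resistance, 25 and 10, and ACD6 28 and 5. In the heat list of 47 genes 3 were lower and 3 higher, close to the shares of all tested genes. The lower ones were the factors HSFA8 (76 and 31 counts), HSFA6A (32 and 10) and AT-HSFB2B (78 and 32), while HSP15.4 rose from 85 to 190. Cold and dehydration genes had 4 lower and 3 higher of 24 (median -0.29). COR15B, a chloroplast cryoprotectant, fell from 2631 to 1248 counts, P5CS1, the key enzyme of proline synthesis, from 283 to 127 and CBF2 from 44 to 20, whereas DREB1A, also called CBF3, rose from 22 to 51. For abscisic acid, 4 of 29 genes were lower and 2 higher (median -0.31): the phosphatase HAI2 had 34 and 8 counts, the factor AREB3 189 and 80, and PYL2, a receptor, 2 and 21. Among 19 jasmonate genes 0 were lower and 1 higher, yet AOS and AOC2, which make the precursor of the hormone, had 799 and 450, and 826 and 419 counts. The sugar starvation list had a median of -0.48 over 23 genes, with 2 lower, ASN1 and the amino acid enzyme BCAT-2 (45 and 19 counts), and 1 higher, DIN10 (2 and 14).

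In the circadian clock list, 17 of 24 tested genes had a log2 ratio below 0 (median -0.38), with 3 lower and 2 higher. COR27, a repressor active in the evening, fell from 616 to 301 counts, BOA, an evening MYB factor, from 211 to 83 (log2 ratio -1.32, interval -1.71 to -0.95) and AT4G33980, annotated as an uncharacterized protein, from 100 to 43. LNK3, of a family of clock coactivators, rose from 11 to 40 counts and AT3G54500, annotated as an agglutinin-like protein, from 29 to 73. The 2 libraries are each a single harvest, so a difference in the time of day or in the phase of the clock and a difference in level cannot be told apart. Among 22 genes of light perception (median 0.07, and -0.07 on TPM) 2 were higher, HFR1 and STO (35 and 74 counts), and CRY1, a blue light receptor, had 682 and 536.

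In the starch list, which also took in the ATP sulfurylase APS1 by its symbol, DPE1, the plastid enzyme that rebuilds glucans, fell from 340 to 92 counts and GBSS1, which makes amylose, rose from 17 to 45, with 2 of 21 genes higher and 1 lower. Auxin genes had 43 of 64 log2 ratios below 0 (median -0.14) and 3 higher, led by PIN7, an efflux carrier, with 166 and 465 counts, against 1 lower, IAA32. Of 38 cytokinin genes (median 0.14, and -0.02 on TPM) 2 were higher and 0 lower, RR16 (13 and 29 counts) and LOG5 (20 and 45). The gibberellin list had 4 higher and 3 lower of 23, and GASA1 fell from 1600 to 744 counts. The 60 listed genes of cutin and wax gave 46 tested, 5 of them higher and 1 lower (median 0.20). Among 31 antioxidant genes (median 0.14, and -0.02 on TPM) 3 were higher, TPX2 with 462 and 1158 counts, SAPX with 22 and 66 and PRXIID with 0 and 34, at least 11.5-fold against the floor. PRXIID passed the low-count filter through the mutants alone. The cell cycle list had a median of -0.02 over 42 genes, with 2 higher and 1 lower, both below the shares of all tested genes (7.43% and 4.29%).

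Among the genes of the m6A system, 3 of 14 tested were higher and 0 lower (median 0.21), beside 7.43% and 4.29% of all tested genes. MTA, the catalytic subunit of the main m6A complex, had 65 and 48 counts and FIP37 of the same complex 50 and 43. EMB1691, listed by the annotation under that name and the partner of MTA known as MTB, had 0 counts in Col-0, 17 in fio1-5 and 12 in fio1-1, at least 5.77-fold higher in fio1-5. It passed the low-count filter through the mutants alone. The reader proteins ECT8 (16 and 39 counts) and ECT4 (5 and 17) rose, while ECT2, the most counted reader, had 199 and 157. ECT4 had 2 counts in fio1-1 and would not have passed that filter without its counts in fio1-5. ALKBH10B, a demethylase, had 190 and 219. In the S-adenosylmethionine cycle, which supplies and clears the methyl donor, SAHH2 rose from 500 to 1016 counts, the 1 higher gene of 15, and its close relative HOG1 had 3499 and 3333.

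Splicing factors had more log2 ratios below 0 than above. Of 16 tested SR proteins, which define exons, 12 had a log2 ratio below 0 (median -0.38) and 2 were lower, RS31a (19 and 7 counts) and SR34a (16 and 5). RSZ22 had 214 and 144 counts and SC35 234 and 223. Of 28 LSM and core U snRNP proteins, 20 were below 0 (median -0.15) and 0 passed 2-fold in either direction, with LSM3B at 499 and 363 counts. On the TPM scale the 2 medians were -0.51 and -0.25, beside -0.15 for all genes. In the RNA decay list CAF1a was the 1 lower gene of 20, and among 27 histones HIS1-3 was the 1 lower gene.

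The U snRNAs, the RNA part of the spliceosome, were added as a list after U6.5 and U2.3 had appeared among the largest rises. They have no poly(A) tail as a rule, and of 82 genes only 12 passed the low-count filter. Of these 6 were higher and 1 lower. U6.5 had 16 counts in Col-0, 135 in fio1-5 and 24 in fio1-1, a log2 ratio of 3.06 in fio1-5 (interval 2.35 to 3.95). U2.3 had 128, 652 and 297 counts and U2.4 124, 468 and 377, while U1.5 had 116, 31 and 66. The copies within a class are closely alike, so the sums are safer: U2 genes together had 563, 1679 and 1442 counts, U6 genes 19, 140 and 30, and U1 genes 120, 50 and 76. The U1 sum rests on U1.5, since the other tested U1 gene, U1.4, had 4 counts in Col-0, 16 in fio1-5 and 9 in fio1-1 (log2 ratio in fio1-5 1.89, interval 0.39 to 4.06). Organelle RNAs are likewise rarely polyadenylated, and 4 of 5 tested plastid genes were lower, such as ATPE (23 and 3), and 7 of 19 mitochondrial genes, such as ORF275 (51 and 14), with 0 higher in either genome. The mitochondrial ribosomal RNAs held most of the counts of that list and were under 2-fold: RRN26 had 1453 and 2049 counts (log2 ratio 0.52, interval 0.42 to 0.62), RRN18 772 and 861 and RRN5 213 and 297. How much of each such RNA carried a tail was not tested.

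The annotation terms with the lowest medians were narrow in range. They were the PHD finger family PHD_2 (17 genes, median -0.51), the F-box family F-box_5 (17 genes, -0.50), the family DUF4378 (12 genes, -0.49), the JmjC histone demethylases (12 genes, -0.46) and the term for positive regulation of cell proliferation (19 genes, -0.44). Each had at most 3 genes 2-fold lower and 0 higher. The F-box family holds the auxin receptors: TIR1 had 480 and 329 counts and AFB5 283 and 196, but GRH1, also known as AFB1, 232 and 325. ELF6, a JmjC demethylase that acts at FLC, had 90 and 52 counts, and the peptide gene RGF9 2564 and 1834. These terms and the extensins were picked from all 1977 by their medians.

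Isoform shares were compared in 1759 genes with at least 2 isoforms counted and at least 50 counts in each library. The share of an isoform is its part of the gene's estimated counts. The largest share difference of a gene had a median of 1.45 percentage points and a 95th percentile of 14.1. In 35 genes (1.99%) at least 1 isoform differed by 20 points or more. Of these, 33 were within 2-fold in their total, 2 were higher and 0 lower, and in 18 the most used isoform was another one in fio1-5 than in Col-0. In 24 of the 35 the gene had under 100 counts in one of the libraries. Isoform shares rest on the assignment of reads to isoforms, and many isoforms differ by only a few bases near an end or a splice site.

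The largest shift was in PGR5-LIKE A, a thylakoid protein of cyclic electron flow around photosystem I. Its isoform 5 had 2.82% of 71.0 counts in Col-0 (exact 95% interval 0.343 to 9.81%), 80.9% of 189 counts in fio1-5 (74.6 to 86.3%) and 80.1% in fio1-1. Isoform 1, the main one in Col-0 with 64.8%, had 12.2% in fio1-5. The gene itself rose 2.71-fold, and the 2 mutant libraries stood together against Col-0. AT5G25360, an uncharacterized protein, came next, with isoform 2 at 20.8% in Col-0 and 66.2% in fio1-5, but 24.5% in fio1-1. In NOXY2, isoform 3 had 3.57% and 34.5% in the same 2 libraries and 0 counts in fio1-1. These 3 genes had under 100 counts in a library and were named after their values were seen.

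Among genes with at least 100 counts in each library, ALY3, an mRNA export adaptor, had the largest difference. Its isoform 2, which starts upstream and has an extra exon, had 4.44% of 132 counts in Col-0 and 37.8% of 270 counts in fio1-5 (interval 32.0 to 43.9%), with 15.9% in fio1-1. AT1G08110, a glyoxalase, lost isoform 1 from 35.4% to 2.18%. RCA, the Rubisco activase, was counted with only 137 and 147 reads, and an unannotated isoform took 56.9% in Col-0 and 24.5% in fio1-5. UTR6, a UDP-galactose transporter, had isoform 1 at 32.6% of 207 counts in Col-0, 0.596% of 168 in fio1-5 and 4.73% in fio1-1, so that isoform 2 was almost the only form left. AT3G25840, a protein kinase, had isoform 2 at 25.4% and 56.5%, and CLC-D, a chloride channel of the Golgi, isoform 2 at 50.7% and 22.3%. An unannotated isoform of AT5G63000, of the Tim17 family of import proteins, went from 4.65% to 30.1%, and one of AT2G43770, a WD40 repeat protein, from 64.4% to 41.2%. AT5G22875 had isoform 3 at 10.4% and 32.5%, AT1G52710 isoform 1 at 36.7% and 15.3%, and GGH1, a folate gamma-glutamyl hydrolase, isoform 2 at 33.6% and 53.9%. The long non-coding gene AT4G13495 had isoform 2 at 33.2% of 1012 counts and 13.7% of 816. These 12 genes were chosen by their share differences, and the plot of isoform shares describes them.

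**Figure D4:**
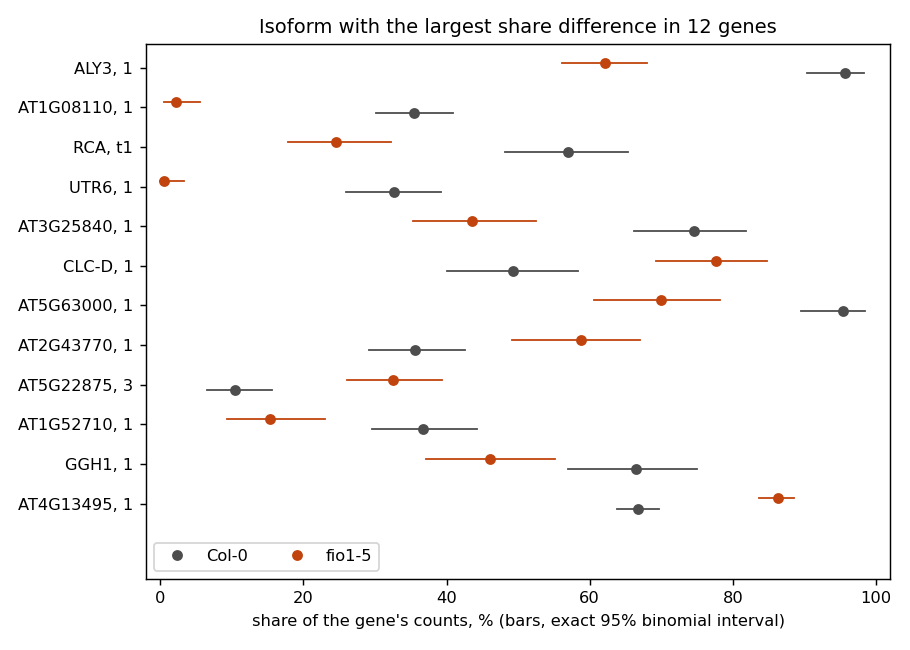
Share of the gene's counts (x axis, %) taken by the isoform with the largest difference, for the 12 genes with the largest share difference among those with at least 100 counts in each library (y axis, gene and isoform number); points are the single library of each genotype and bars the exact 95% binomial interval. Isoform 1 of UTR6 goes from 32.6% in Col-0 to 0.596% in fio1-5.

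To see what kind of splicing choice lay behind the shares, annotated isoforms were joined by identifier to the gene models of the TAIR10.1 reference, which holds 53219 of the 56591 isoforms and at least 98.5% of the counts. Pairs of isoforms were compared that share an acceptor but use different donors (5′ splice sites). So were pairs that share a donor but use different acceptors (3′ splice sites), and pairs of which one retains an intron that the other removes. Each pair had at least 50 counts in each library. The less used donor or acceptor also needed at least 20 counts over both. For introns this minimum applied to the retained form alone, so the spliced form could have few counts or none. A share difference of 20 points or more was found in 12 of 113 donor pairs (10.6%), 7 of 175 acceptor pairs (4%) and 12 of 933 retained introns (1.29%). Isoforms of a pair can also differ elsewhere in the transcript, so a pair is not always a single choice. The same isoform change can be counted under several kinds, as in AT1G08110 and AT3G25840, and PGR5-LIKE A appears repeatedly among the acceptor pairs. The pairs are therefore not independent. Since the count minimum differed for introns, their share is not comparable with those of donors and acceptors.

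The donors of 5 genes, chosen after their values were seen, are written 5′ to 3′. The last 3 exon bases are in lower case and the first 6 intron bases in capitals. The fourth capital is the base at +4, opposite the methylated base of U6. The donor that lost share has A at +4 in UTR6, CLC-D, ZML1 and PK1B, whereas in AT3G25840 the donor that gained has it. The part of U6 methylation in these shares was not tested. In each gene the donor that lost share stands first.
UTR6, donor of isoform 1: aatGTAAAC
UTR6, donor of isoform 2: cagGTTCTC
CLC-D, donor of isoform 2: agtGTAAGG
CLC-D, donor of isoform 1: aagGTCTCT
ZML1, donor of isoform 1: ctgGTAATA
ZML1, donor of isoforms 2 and 3: aggGTACTG
PK1B, donor of isoform 2: cagGTAAGC
PK1B, donor of isoform 3: cagGTACTT
AT3G25840, donor of isoform 1: ctgGTCTGT
AT3G25840, donor of isoform 2: tttGTAAGA

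In UTR6 the donors lie 8 bases apart. The one with A at +4 had 67.5 of 207 counts in Col-0 (32.6%) and 1.00 of 168 in fio1-5 (0.596%). In CLC-D, with donors 5 bases apart, the donor with A at +4 went from 50.7% (interval 41.7 to 59.9%) to 22.3% (15.2 to 30.8%). In ZML1, a GATA factor, the donor with A at +4 had 25 of 69.0 counts in Col-0 and 0 of 58.0 in fio1-5, which allows a share of up to 6.16%, and it was also at 0 in fio1-1. In PK1B, a protein kinase, the donors lie 9 bases apart and that with A at +4 went from 74.2% to 52.3%, and to 69.5% in fio1-1. AT3G25840 had the largest gain of a donor with A at +4, from 25.4% to 56.5%. There the donors lie 216 bases apart, since isoform 2 has an extra exon, and the isoforms also differ at the 3′ end. The donor with A at +4 also gained in AT1G52100, from 26.4% to 47.3%, and in AT1G08110, from 32.2% to 50.1%. AT4G40050 switched between donors 4 bases apart, neither of them with A at +4: aagGCAGGT, which starts with GC in place of GT, went from 61.4% to 25.7% and cagGTTTGT from 38.6% to 74.3%. UTR6, ZML1, CLC-D and AT4G40050 had shifts of 28.4 points or more in the same direction in fio1-5, and of at least 27.2 points in fio1-1.

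Over all 113 donor pairs, in 109 genes, 42.5% of the donors had A at +4. Among the donors that lost share in fio1-5, A stood at +4 in 58 of 113 (51.3%), and among those that gained in 38 (33.6%). In the 28 pairs that moved by 10 points or more, the numbers were 15 (53.6%) and 5 (17.9%). T and C at +4 were instead more frequent among the gaining donors of those 28 pairs, with 12 and 9 against 7 and 5. In 62 pairs exactly 1 donor had A at +4. That donor lost share in 41 of them and gained in 21, with a median change of -1.39 points and a range from -36.24 to 31.05. It lost 10 points or more in 14 pairs and gained as much in 4. For fio1-1 and the same 62 pairs, the donor with A at +4 lost share in 34 and gained in 28, with a median change of -0.23 points. Restricted to donors at most 50 bases apart, a limit chosen after the data were seen, the donor with A at +4 lost share in 20 of 23 pairs in fio1-5, with a median change of -4.66 points.

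G at -1 and G at +5 did not split in this way. Where exactly 1 donor had G at -1, the last exon base, that donor lost share in 26 pairs and gained in 25. Where exactly 1 had G at +5, it lost in 23 and gained in 21. In both cases the median change was within 0.01 of 0. Other bases did differ: over all 113 pairs, A at +6 stood in 39 losing donors (34.5%) and 25 gaining ones (22.1%). T at +6 stood in 43 losing and 55 gaining donors. At -1, T stood in 22 losing and 13 gaining donors, and C in 1 and 7. The plot of donor shares shows the 62 pairs, in which most points far from the line lie below it.

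**Figure D5:**
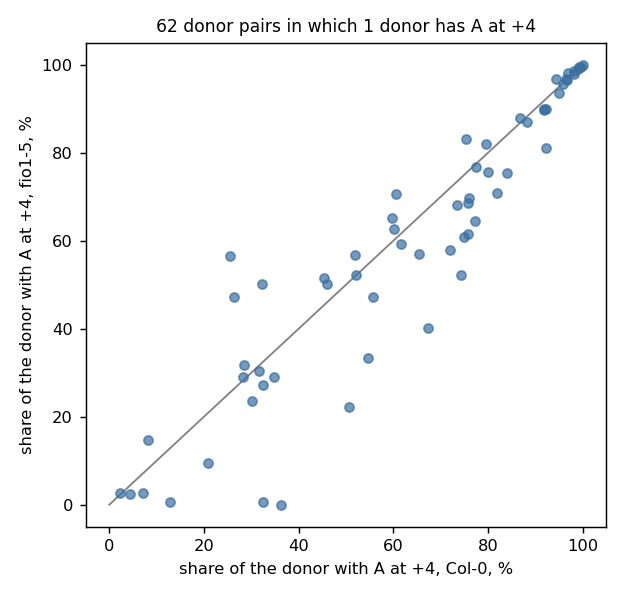
Share of the donor with A at +4 in Col-0 (x axis, %) and fio1-5 (y axis, %) for the 62 donor pairs in which exactly 1 donor has A at +4; points are pairs and the line is equality. The donor with A at +4 lost share in 41 pairs and gained in 21.

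Acceptor pairs had their largest shift in PGR5-LIKE A, where 2 acceptors lie 6 bases apart. Written with the last 6 intron bases in capitals and the first 3 exon bases in lower case, the acceptor CTTAAGgtc went from 97.2% of the pair in Col-0 to 19.1% in fio1-5, in favour of GTCCAGtag. Of the 175 acceptor pairs, 72 were 3 bases apart, the spacing at which a repeated AG gives a choice of acceptor. The acceptor nearer to the donor gained share in 46 of these and lost in 26 in fio1-5, with a median change of 1.90 points, and it gained 10 points or more in 15 and lost as much in 6. In fio1-1 it gained in 35 and lost in 37. TPR8 and WDL1 were examples: in TPR8, GAACAGcag went from 56.1% to 26.3% and CAGCAGaac from 43.9% to 73.7%, the downstream acceptor gaining, and in WDL1, a microtubule-associated protein, TTTTAGcag went from 53.7% to 72.2% against TAGCAGcag.

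Retained introns did not lean strongly in either direction. Of 933, in 719 genes, the retained form had a larger share in fio1-5 in 285 and a smaller one in 293, and the median difference was 0.00. The remaining introns did not differ between the libraries. Since the minimum of counts covered the retained form alone, introns with an uncounted spliced form could stay in and pull the median to 0.00. Of the 12 that moved by 20 points or more, 9 gained and 3 lost the retained form. The 9 include both introns of the SEN1 pair named below, which share an isoform and are not independent. AT1G08110 gained, from 48.2% to 95.7%, as did APT1, an adenine salvage enzyme, from 33.3% to 73.5%, but APT1 moved the other way in fio1-1. SEN1, a senescence and darkness marker, had a pair of neighbouring introns of which the first went from 53.9% retained to 91.5%, and NIC1, a nicotinamidase of NAD salvage, one that went from 12.7% to 41.4%. AT1G80030, a DnaJ chaperone, lost its retained form from 94.1% to 53.6%, and BCA6, a carbonic anhydrase, from 33.2% to 13.1%. In AT1G08110 and GGH1 the retained intron lies in the first exon, and the isoforms also have different starts.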

How the data were processed

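Reads were base called and trimmed with Guppy, filtered with Nanofilt, corrected with Fclmr2 and mapped with Minimap2 2.17-r941 by the authors. For every isoform and library the deposited tables give an estimated count, and a TPM value that takes isoform length into account and sums to 1000000. The counting tool, its annotation, its use of strand and a genome build are not given in the sources used here, and the columns name no platform. They were taken to be the Nanopore libraries, as the study describes them, and the column with the working name fio1-2 as fio1-5.

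Isoform counts were summed per gene, rounded and scaled with TMM factors (edgeR 4.0.16, genes with at least 20 counts over the 3 libraries). The factors were 1.023, 0.989 and 0.988 for Col-0, fio1-5 and fio1-1. Ratio intervals are exact conditional binomial, count intervals exact Poisson and share intervals Clopper-Pearson, all at 95%. The steps were tested on simulated data. Genes outside the annotation held 0.177% of Col-0 and 0.168% of fio1-5 counts and were kept. Other steps used Python 3.11.15, pandas 2.3.3 and scipy 1.17.1, and DESeq2 1.42.0 gave size factors for 1 alternative. The lengths implied by counts and TPM lay within 2% of a straight line on the TAIR10.1 lengths for 99.0% of 8934 isoforms. Splice site letters come from RefSeq TAIR10.1, by isoform identifier.

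The 52 gene lists, and 5 more for U snRNAs, root hairs, endodermis, stomata and seed storage, were chosen with earlier results of these data known, the 5 after values had been seen. Genes were named by rule: FIO1 and FLC, the 12 largest rises and falls with at least 100 counts, the 8 largest gains and losses of CPM, up to 5 members per list (2-fold first, then by counts), up to 4 members of the 5 highest and 5 lowest annotation terms, and the 12 largest isoform shifts with at least 100 counts. Names outside the rule were chosen after their values were seen. These are, among the gene results, RSL4, RHD2, EXPA7, CSLD3, MRH6, U1.4, RRN26, RRN18, RRN5, RPS10, RPS19, SHR, SCR, MTA, FIP37, FRU, MYB10, OPT3, BTS, PIF4, ERF6, TCH3, EXL5, EXL2 and UGT76D1, and the splice examples. The m6A calls and the Illumina libraries were not analysed here. The alternatives tried were size factors of DESeq2, scaling by totals, TPM, 2 counts added, other count minimums and cutoffs, and annotated isoforms alone.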

Additional observations from a re-analysis of the deposited data

How the results depend on the processing

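No paired analysis was possible because each genotype has 1 library, and for the same reason none could be left out. The number of genes at least 2-fold higher in fio1-5 (1220) was 636 on TPM with 0.5 TPM added, 3264 without the low-count filter, 407 with at least 100 counts and 209 at 4-fold. The number of genes at least 2-fold lower in fio1-5 (704) was 2374 without the filter, 202 with at least 100 counts and 101 at 4-fold. The number of genes with an isoform share shift of at least 20 points in fio1-5 (35) was 11 with at least 100 counts in each library, 177 with at least 20, 13 at 30 points and 53 on TPM. Total-count scaling, DESeq2 size factors and 2 counts added kept both gene counts within 1.5 times. The share of pairs in which the donor with A at +4 lost was 66.1% and, under alternatives chosen after seeing the data, 71.1% with at least 100 counts, 65.4% with at least 20 and 87.0% for donors at most 50 bases apart. On TPM the median of the antioxidant enzymes moved from 0.14 to -0.02, and those of photosystem II (-0.04), chlorophyll synthesis (-0.03), the proteasome (-0.12), copper (-0.01), salicylic acid (-0.11), cytokinin (-0.02), light perception (-0.07), stomata (-0.05) and wall expansion (-0.00) also lost their positive sign. On TPM the log2 ratios of PSAE-1 (-0.03), PSAD-1 (-0.12), PSBO1 (-0.05), PSBP-1 (-0.02), FBA2 (-0.07), PORB (-0.04), NIA2 (-0.02), LTP2 (-0.08) and APS1 (-0.03) changed sign, and with total-count scaling PSAD-1 was at -0.00. The cause was not tested. Genes near 20 counts have intervals wider than 2-fold, and the depth limits what can be said of them.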
